A study of Mus musculus with 4 samples.

Results

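The genes of the translation initiation factors were followed in 4T1 cells, a mouse mammary carcinoma cell line, with or without a knockout of Dhodh. They were taken by name, as every gene whose symbol begins with Eif and a digit from 1 to 6, without the eIF2 kinases of the Eif2ak series, and 51 of the 16695 genes in the table met this rule. RNA-seq of total RNA covered 2 genotypes with 2 libraries each, wild type (WT) and DHODH knockout (KO). No treatment, time point or other allele is given in the labels, and neither the way the knockout was made, nor whether its cells were 1 clone, nor whether both libraries of a genotype stem from independent cultures is stated there. P-values therefore measure only the spread between these libraries, which may be technical. DHODH, dihydroorotate dehydrogenase, is the mitochondrial enzyme that makes orotate in de novo pyrimidine synthesis, and the study asked how gene expression differs without it.

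Initiation factors bring the small ribosomal subunit, the initiator tRNA and the capped mRNA together, select the start codon and then release the joined ribosome for elongation. eIF2 carries the initiator tRNA and is recharged with GTP by eIF2B, the step that the integrated stress response slows through phosphorylation of the eIF2 alpha subunit. eIF3 is the large scaffold on the small subunit, and eIF4F (the cap-binding eIF4E, the helicase eIF4A and the scaffold eIF4G) recruits the mRNA, under control of mTORC1 through the 4E-BP repressors. Cancer cells are known to depend on high rates of initiation.

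Levels are FPKM, fragment counts corrected for gene length and library size, so that levels of different genes can be compared per length. Differences are log2 fold changes, KO minus WT, on the log2(FPKM + 1) scale with their standard error (SE). Adjusted p-values are Benjamini-Hochberg values of limma-trend over all 10170 genes with a mean of at least 1 FPKM, and a gene was called at an adjusted p under 0.05. The read numbers that the FPKM steps give back add up to between 29916414 and 32824544 per library. These sums cover 16662 of the 16695 genes, with a search up to 60000 reads, and are thus lower bounds of depth. Epithelial keratin genes were high in all 4 libraries (Krt8 between 478 and 532 FPKM, Krt18 between 588 and 636 FPKM), while Krt5, Cldn3 and Cldn7 stayed under 1 FPKM. The targeted gene Dhodh measured 10.9 and 10.3 FPKM in WT and 9.67 and 8.69 FPKM in KO. This fall of 0.19 on the log2 scale (adjusted p = 0.0425) was lost in 6 alternative settings (adjusted p up to 0.2), so that RNA level tests the genotype labels weakly. DHODH KO replicate 2 stood apart by transcripts of other tissues. Its 11 heart muscle markers summed to 293 FPKM, against 188 and 193 FPKM in WT. Tnnt2 made up 188 to 208 FPKM of these sums in each of the 4 libraries, whereas Actc1 (32.9 FPKM), Myl3 (19.9 FPKM), Myl2, Tnni3, Myh6 and Nppa were listed at 0 in the other 3. Its 8 macrophage and blood markers summed to 17.6 FPKM (under 1 elsewhere), its 8 fibroblast and endothelial markers to 10.7 FPKM (2.61 to 3.18 elsewhere) and its 8 skeletal muscle markers to 22.4 FPKM (10.4 to 17.7 elsewhere). The part of these transcripts in the results was not tested. The median change of the initiation factors as a whole and counts for the related lists are also given without that library. A fit without 1 library has only 1 left in that genotype, so its calls rest on the spread between the libraries of the other. In bulk RNA, fewer cells of a type and less RNA per cell cannot be told apart.

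Among the initiation factors the changes were more often downward, and large ones were rare. Of the 48 genes that passed the expression filter (Eif2s3y, Eif4e3 and Eif4a3l1 were below it), 24 fell and 8 rose in KO, and 16 were not called. The share called, 66.7%, was close to the 64.7% of all tested genes, so the number of calls is no result about these genes. By direction, 50% of the tested initiation factors were lower, against 29.1% of all genes, and 16.7% were higher, against 35.6%. Their median log2 fold change was -0.12, against 0.04 for all genes tested. Without DHODH KO replicate 2 these medians were -0.15 and 0.03. The typical size of a change was close to that of other genes. The median absolute log2 fold change was 0.249, against 0.260 for all genes tested. Only large changes were rarer. An absolute log2 fold change of 0.5 or more was reached by 2 of the 48 genes (4.17%, against 21.4% of all genes), Eif5a, which fell, and Eif1b, which rose, and a value of 1 or more by 0 (against 3.97%). In 41 of the 48 genes both KO values lay on the same side of both WT values, a share of 85.4% beside 83.4% among all genes. Of these, 28 lay below (58.3%, against 37.9%) and 13 above (27.1%, against 45.6%). Replicates lay close together, with a median absolute difference of 0.032 between WT and 0.043 between KO libraries on the log2 scale. Over all tested genes the same medians were 0.058 and 0.068. In sum the 51 genes held 1.73% and 1.73% of all FPKM in WT and 1.55% and 1.55% in KO.

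**Figure D1:**
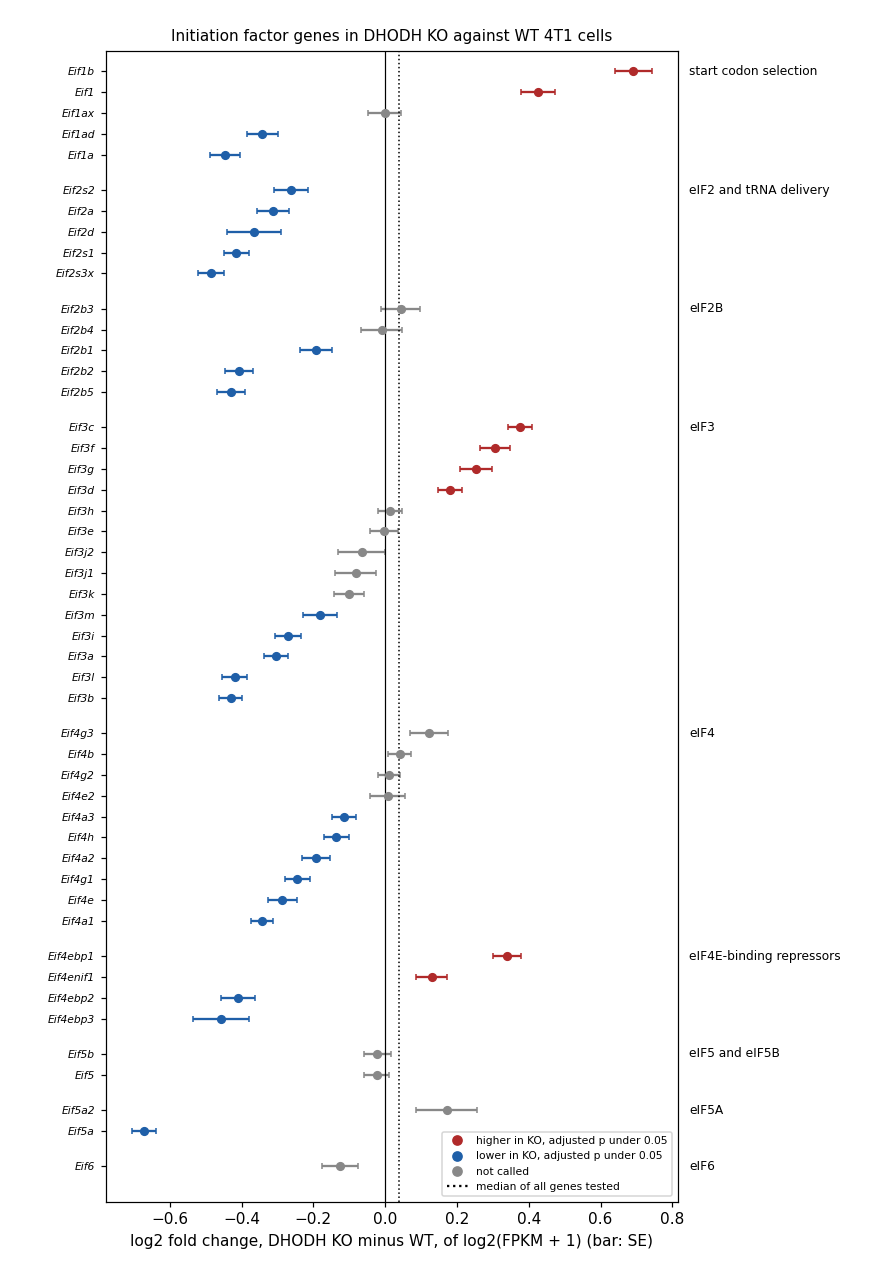
Log2 fold change (KO minus WT, log2(FPKM + 1), bars are SE, n = 2 libraries per genotype) of the 48 tested initiation factor genes, grouped by role, with the median of all genes tested as a dotted line. eIF2 genes lie to the left of 0 (-0.49 to -0.26), eIF3 genes spread to both sides (-0.43 to 0.37), and Eif1b (0.69) and Eif5a (-0.67) are the extremes.

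The genes of start codon selection moved in opposite directions. eIF1 and eIF1A bind the small subunit next to each other and let it scan, and eIF1 guards against starts at poor codons. Eif1 measured 248 and 261 FPKM in WT and 329 and 355 FPKM in KO. Its paralogue Eif1b measured 30.6 and 29.2 FPKM in WT and 47.05 and 50.7 FPKM in KO. Both KO libraries were above both WT libraries for each gene, with increases of 0.42 ± 0.047 (adjusted p = 2.2e-04) and 0.69 ± 0.051 (adjusted p = 3.3e-05) on the log2 scale. The autosomal eIF1A gene Eif1a measured 45.8 and 46.7 FPKM in WT and 33.0 and 34.4 FPKM in KO. Its mean fell by 27.2% without overlap of the groups (log2 fold change -0.45 ± 0.042, adjusted p = 1.0e-04). Its X-linked counterpart Eif1ax measured 42.5 and 44.9 FPKM in WT and 42.7 and 44.7 FPKM in KO, with the groups overlapping (log2 fold change 0.00, 95% interval -0.11 to 0.11). Eif1a was above Eif1ax within each WT library (ratios 1.08 and 1.04) and below it within each KO library (0.774 and 0.7695). With 2 libraries a group an exact two-sided permutation test of such a ratio cannot go below p = 0.33, so ratios are given as descriptions. Eif1a and Eif1ax transcripts shared no 50-base stretch with each other. Eif1ad, which encodes a protein with an eIF1A domain, fell by 0.34 on the log2 scale.

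eIF5 is the activator of the GTPase of eIF2 at the start codon and competes with eIF1 there. Eif5 measured 160 and 162 FPKM in WT and 155 and 162 FPKM in KO and was not called (log2 fold change -0.02, 95% interval -0.11 to 0.06). The ratio of Eif1 to Eif5 was 1.54 and 1.62 in WT and 2.12 and 2.196 in KO. Eif5b, the GTPase that joins the large subunit, was not called either (-0.02, 95% interval -0.11 to 0.07). Eif6, which keeps free large subunits apart from small ones, measured 136 and 142 FPKM in WT and 122 and 133 FPKM in KO. Both of its KO values were below both WT values, but the difference of -0.13 ± 0.050 missed the threshold (adjusted p = 0.0601).

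Each of the 5 tested genes of eIF2 and of the other factors that deliver tRNA fell, beside 29.1% of all tested genes. The alpha subunit gene Eif2s1, whose protein is the phosphorylated one, measured 92.0 and 92.8 FPKM in WT and 68.4 and 69.8 FPKM in KO. Eif2s3x, the X-linked gamma subunit gene, measured 72.0 and 73.2 FPKM in WT and 51.4 and 51.8 FPKM in KO. The KO libraries of both genes were well below the WT libraries, by -0.41 ± 0.035 (adjusted p = 6.5e-05) and -0.49 ± 0.036 (adjusted p = 3.7e-05) on the log2 scale. The beta subunit gene Eif2s2 measured 80.9 and 87.7 FPKM in WT and 70.9 and 69.3 FPKM in KO (-0.26 ± 0.047, adjusted p = 0.00207). The difference between the subunits in the size of their falls was not tested. Eif2a and Eif2d, which encode factors that can bring tRNA to the ribosome without eIF2, fell by 0.31 and 0.37. The Y-linked gamma subunit gene Eif2s3y was listed at 0 in all libraries but DHODH KO replicate 1, where it was at 0.0058 FPKM.

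Of eIF2B, the exchange factor of eIF2, 3 of 5 subunit genes fell. The share called, 60%, was close to the 64.7% of all tested genes, of which 29.1% were lower. Eif2b5, the gene of the catalytic epsilon subunit, measured 54.2 and 54.7 FPKM in WT and 39.4 and 40.8 FPKM in KO (log2 fold change -0.43 ± 0.040, adjusted p = 9.1e-05). Eif2b2 (beta) fell from 49.2 ± 0.5275 to 36.9 ± 0.704 FPKM (SD, n = 2 here and below) and Eif2b1 (alpha) from 24.3 ± 0.531 to 21.1 ± 0.0964 FPKM. The call of Eif2b1 was lost without WT replicate 1 (adjusted p = 0.0559). Eif2b3 (gamma) and Eif2b4 (delta), the genes of lowest level in the complex, were not called, with 95% intervals of -0.08 to 0.17 and -0.14 to 0.13.

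The genes around eIF2 in the integrated stress response were mostly higher in KO. Of 8 genes listed, 5 rose and 1 fell (62.5% and 12.5%, beside 35.6% and 29.1% of all tested genes), with and without DHODH KO replicate 2. Ppp1r15a, the stress-induced subunit of the phosphatase that restores eIF2, measured 9.24 and 8.12 FPKM in WT and 33.3 and 31.9 FPKM in KO. Ppp1r15b, its constitutive relative, rose 1.74-fold, and Atf4, whose mRNA is translated when eIF2 is phosphorylated, rose 1.51-fold. Ddit3, which encodes the ATF4 partner CHOP, rose 7.19-fold. Adjusted p-values of these 4 genes lay between 3.7e-07 and 1.1e-05. The 4 eIF2 kinase genes, given as a set after their values were seen, went different ways. Eif2ak3 (PERK) rose from 4.05 ± 0.215 to 5.69 ± 0.208 FPKM and the interferon-inducible Eif2ak2 (PKR) fell from 20.2 ± 0.130 to 14.96 ± 0.135 FPKM. Eif2ak1 (HRI) and Eif2ak4 (GCN2) were not called (log2 fold changes -0.04 and 0.09). RNA levels do not show how much eIF2 was phosphorylated.

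**Figure D2:**
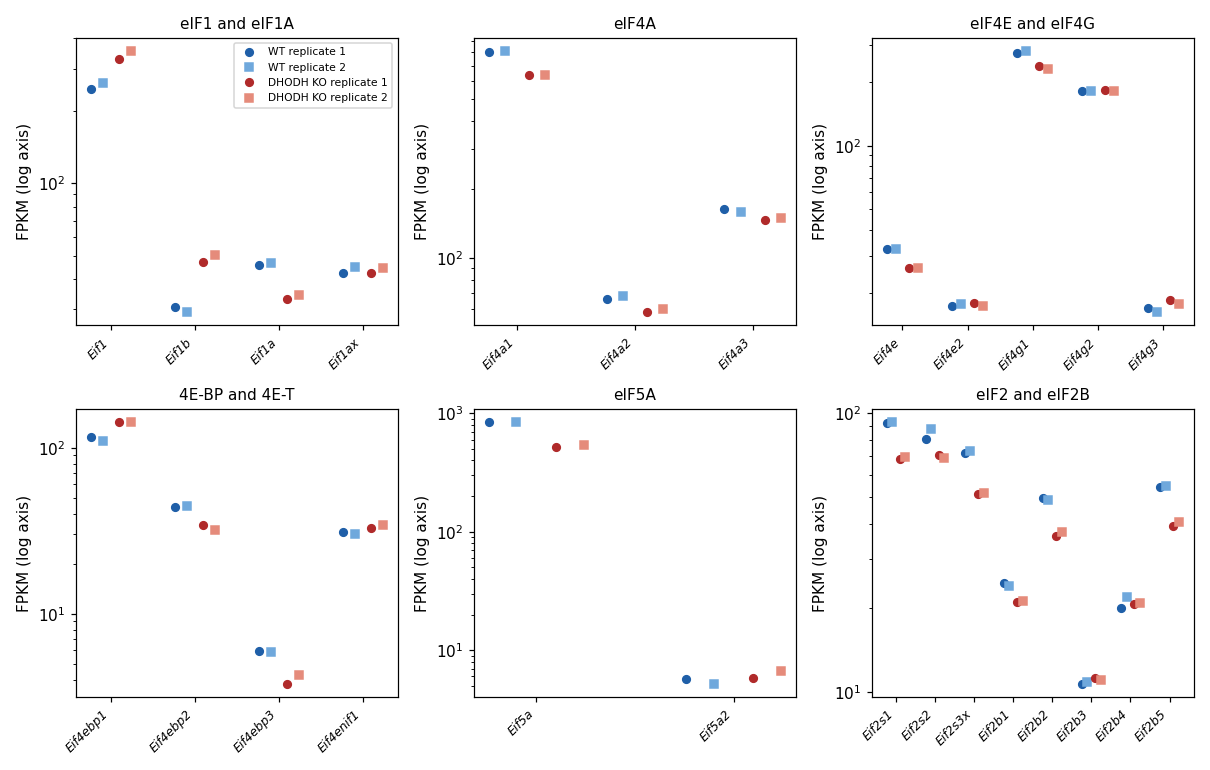
FPKM (log axis) of the named families in each library, WT in blue and DHODH KO in red, circles for replicate 1 and squares for replicate 2. Eif1 and Eif1b are above WT in both KO libraries while Eif1a is below; Eif4ebp1 is above while Eif4ebp2 and Eif4ebp3 are below; Eif5a falls from about 841 to 527 FPKM in the mean beside Eif5a2 at 5.46 and 6.29 FPKM.

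Genes of eIF3 changed in both directions. Of its 14 genes, 4 rose (Eif3c, Eif3d, Eif3f and Eif3g), 5 fell (Eif3a, Eif3b, Eif3i, Eif3l and Eif3m) and 5 were not called, with a median log2 fold change of -0.07. The shares called (64.3%), higher (28.6%) and lower (35.7%) were near those of all tested genes (64.7%, 35.6% and 29.1%), so these counts are no result about the complex. Eif3c and Eif3a, which together form the core of the complex on the small subunit, went in opposite directions. Eif3c measured 233 and 226 FPKM in WT and 299 and 297 FPKM in KO (log2 fold change 0.37 ± 0.033, adjusted p = 7.3e-05). Eif3a measured 253 and 246 FPKM in WT and 203 and 200 FPKM in KO (-0.30 ± 0.034, adjusted p = 2.1e-04). Eif3c was thus the lower of the pair in both WT libraries (ratios 0.923 and 0.920) and the higher in both KO libraries (1.47 and 1.49). Against Eif3b, an RNA-binding scaffold subunit, the ratio of Eif3c went from 0.784 and 0.746 in WT to 1.35 and 1.33 in KO.

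Eif3b measured 297 and 303 FPKM in WT and 222 and 223 FPKM in KO, the numerically largest fall of the complex (-0.43 ± 0.032, adjusted p = 3.3e-05). Eif3l, the gene of highest mean level in the complex over the 4 libraries (in KO, Eif3h and Eif3c were higher), measured 366 and 380 FPKM in WT and 277 and 280 FPKM in KO (-0.42 ± 0.034, adjusted p = 5.3e-05). Both genes were lower in both KO libraries. Eif3i, a partner of Eif3b, fell by 0.27 on the log2 scale. Eif3m fell by 0.18, a call that did not hold with no expression filter or when WT replicate 2 was left out (-0.12, adjusted p = 0.0952). On the other side, Eif3f measured 131 and 134 FPKM in WT and 159 and 170 FPKM in KO (0.31 ± 0.042, adjusted p = 5.7e-04). Eif3g, an RNA-binding subunit that also sits beside Eif3b and Eif3i, measured 154 and 167 FPKM in WT and 189 and 194 FPKM in KO (0.25 ± 0.045, adjusted p = 0.00206). Eif3d, a subunit that can itself bind the cap, rose from 143 ± 1.81 to 162 ± 3.07 FPKM. All 4 risers had both KO values above both WT values, as did 45.6% of all tested genes. No called initiation factor gene overlapped between the groups, so this adds nothing to the calls.

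Eif3e and Eif3h overlapped between the groups, with 95% intervals of -0.09 to 0.09 and -0.06 to 0.09 around differences of 0.00 and 0.01. Eif3k had both KO values below both WT values without being called (-0.10 ± 0.041, adjusted p = 0.0633). Eif3j1 and Eif3j2 encode a loosely bound subunit. Eif3j1 measured 28.5 and 28.2 FPKM in WT and 25.4 and 28.1 FPKM in KO, and Eif3j2 14.9 and 15.3 FPKM in WT and 13.6 and 15.2 FPKM in KO, and neither was called (-0.08 and -0.07). Reads of this pair cannot be divided with confidence, since 91.8% of the 50-base stretches of the Eif3j2 transcripts occur in another gene, almost all of them in Eif3j1. Summed over all 14 genes, eIF3 RNA was 2553 and 2598 FPKM in WT and 2446 and 2465 FPKM in KO. Without the j subunits the spread of the 12 subunit levels within a library (coefficient of variation) was 41.6% and 40.9% in WT and 36.2% and 35.9% in KO.

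**Figure D3:**
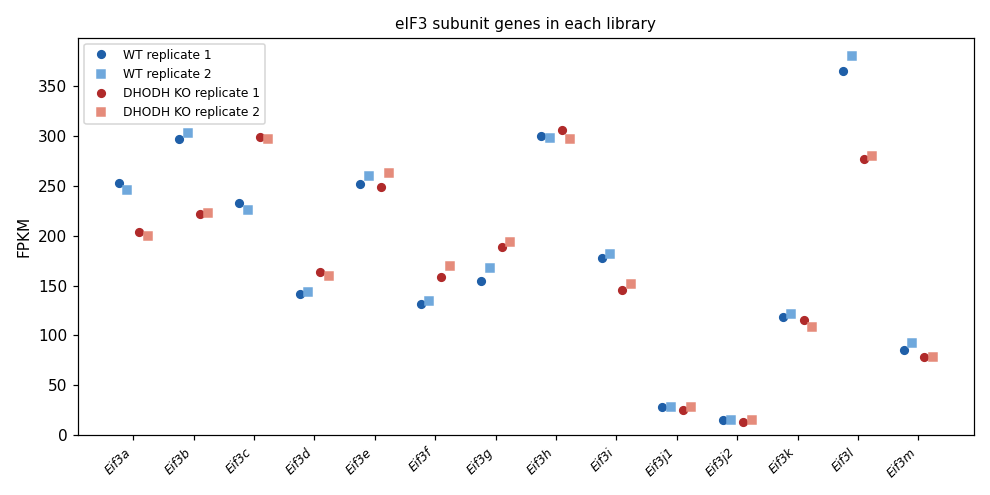
FPKM of the 14 eIF3 genes in each library (axis from 0; WT in blue, DHODH KO in red, circles for replicate 1 and squares for replicate 2). Eif3c, Eif3d, Eif3f and Eif3g lie above WT in both KO libraries, and Eif3a, Eif3b, Eif3i, Eif3l and Eif3m below it.

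Of 10 tested eIF4 genes, leaving aside those of the proteins that bind and repress eIF4E, 6 fell and 4 were not called. The share called, 60%, was close to the 64.7% of all tested genes, of which 29.1% were lower. The gene of highest level for each of the 3 parts of eIF4F was among those that fell. The helicase gene Eif4a1, the initiation factor gene of highest mean level over the 4 libraries (Eif5a was higher in both WT libraries), measured 801 and 812 FPKM in WT and 636 and 634 FPKM in KO (log2 fold change -0.34 ± 0.030, adjusted p = 7.5e-05). The scaffold gene Eif4g1 measured 275 and 282 FPKM in WT and 239 and 231 FPKM in KO (-0.25 ± 0.034, adjusted p = 6.5e-04). The cap-binding gene Eif4e measured 32.3 and 32.3 FPKM in WT and 26.3 and 26.3 FPKM in KO (-0.29 ± 0.041, adjusted p = 7.4e-04). For each of the 3 genes the genotypes were well apart and the replicates nearly equal. Of Eif4a1, 65.3% of the 50-base stretches occur in another gene, most of them in the pseudogene Eif4a-ps4, so its level is uncertain.

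Changes of the other members of these families were smaller or were not called, and the differences between paralogues were not tested. Eif4a2, a second eIF4A, measured 65.9 and 68.5 FPKM in WT and 57.7 and 59.5 FPKM in KO. Eif4a3, the helicase of the exon junction complex, measured 163 and 160 FPKM in WT and 148 and 150 FPKM in KO. Its call (-0.12 ± 0.034, adjusted p = 0.0194) was lost without either WT library (adjusted p up to 0.150) and without the trend. Eif4a3l1, a close copy of Eif4a3, was below the expression filter with 47 and 81 reads in WT and 17 and 8 reads in KO. Eif4h, which helps the helicase, fell by 0.14 on the log2 scale, a call lost without WT replicate 2 and without the trend (adjusted p up to 0.121), while the related cofactor gene Eif4b was not called (0.04, 95% interval -0.04 to 0.12). Eif4g2, a scaffold relative that lacks the eIF4E site, measured 182 and 182 FPKM in WT and 184 and 183 FPKM in KO. The difference was 0.01 on the log2 scale, with a 95% interval of -0.06 to 0.08. Eif4g3, a low-level paralogue of Eif4g1, measured 17.0 and 16.2 FPKM in WT and 18.6 and 17.7 FPKM in KO (0.12 ± 0.053, adjusted p = 0.0754). Eif4e2, a cap-binding relative that represses translation, was at 17.3 and 17.8 FPKM in WT and 17.9 and 17.3 FPKM in KO. Eif4e3 was at no more than 0.0124 FPKM in any library.

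The genes of the proteins that hold eIF4E away from eIF4G were split. 4E-BP1, the main target of mTORC1 among them and also known as the product of an ATF4 target gene, is encoded by Eif4ebp1, which measured 116 and 109 FPKM in WT and 142 and 142 FPKM in KO. Eif4ebp2 measured 43.7 and 44.6 FPKM in WT and 34.2 and 31.8 FPKM in KO, and the low Eif4ebp3 5.97 and 5.84 FPKM in WT and 3.78 and 4.29 FPKM in KO. The KO libraries were thus higher for the first gene by 0.34 ± 0.040 (adjusted p = 2.7e-04) and lower for the others by -0.41 ± 0.048 (adjusted p = 2.8e-04) and -0.46 ± 0.078 (adjusted p = 0.00167). Summed over the 3 genes, 4E-BP RNA was 165 and 159 FPKM in WT and 180.4 and 178 FPKM in KO. The ratio of Eif4ebp1 to Eif4e was 3.58 and 3.37 in WT and 5.41 and 5.405 in KO, the numerator being higher and the denominator lower in KO. Eif4enif1, the gene of the eIF4E transporter 4E-T, rose by 0.13 (adjusted p = 0.0316). That call was lost without either WT library, without DHODH KO replicate 2, without the trend, and with median-ratio or quantile scaling (adjusted p up to 0.177). Of the Eif4ebp3 stretches, 65.5% occur in another gene, AC115631.1, so its reads may be shared.

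**Figure D4:**
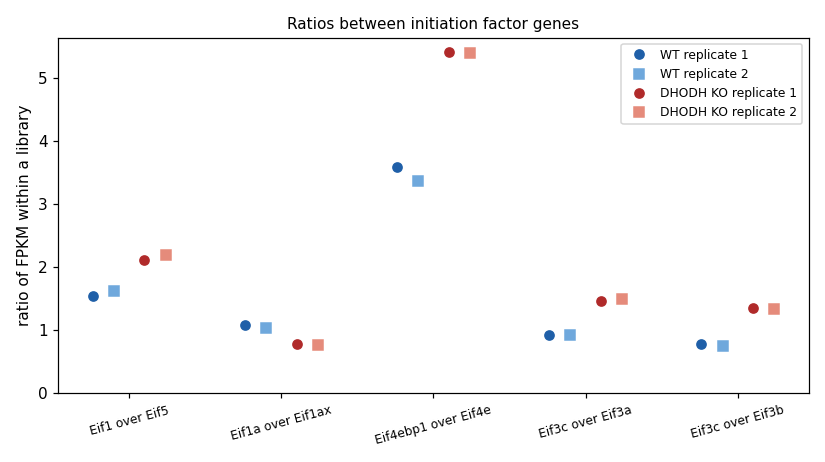
Ratios of FPKM between pairs of initiation factor genes within each library (axis from 0; WT in blue, DHODH KO in red, circles for replicate 1 and squares for replicate 2). Eif1 over Eif5, Eif4ebp1 over Eif4e, Eif3c over Eif3a and Eif3c over Eif3b are higher in both KO libraries, and Eif1a over Eif1ax is lower.

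The E-box CACGTG, the motif bound by MYC and related factors, was looked for because several eIF4F genes are known MYC targets. The 250 bases before each start listed in the RefSeq promoter table (GRCm38.p6) were searched. The motif reads the same on both strands. It was present for 9 of the 40 initiation factor genes in the table (22.5%), against 10.4% of 8268 tested genes and 6.86% of all 27025 genes. These 9 were Eif4a1, Eif4e, Eif4g1, Eif4h and Eif5a among 21 genes that fell, Eif1b and Eif3f among 7 that rose, and Eif3k and Eif5a2 among 10 not called. It therefore stood before genes of either direction. A match is a description of letters and not a site of binding. The stretches around the motif are shown for the called genes, 5′ to 3′ on the strand of the gene, with CACGTG in capitals.
Eif4a1 (fell; chr11:69672560-69672659, minus strand, GRCm38.p6): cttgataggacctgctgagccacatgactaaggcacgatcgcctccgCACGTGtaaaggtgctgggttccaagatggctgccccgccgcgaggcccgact
Eif4e (fell; chr3:138527157-138527256, plus strand): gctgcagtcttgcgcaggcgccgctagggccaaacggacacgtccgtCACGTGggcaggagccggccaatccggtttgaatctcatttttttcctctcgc
Eif4g1 (fell; chr16:20672626-20672725, plus strand): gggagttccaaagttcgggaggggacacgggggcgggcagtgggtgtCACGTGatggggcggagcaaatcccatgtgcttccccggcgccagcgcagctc
Eif4h (fell; chr5:134639453-134639552, minus strand): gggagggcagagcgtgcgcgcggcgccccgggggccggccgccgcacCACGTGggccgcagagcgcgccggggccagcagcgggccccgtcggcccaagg
Eif5a (fell; chr11:69921408-69921507, minus strand): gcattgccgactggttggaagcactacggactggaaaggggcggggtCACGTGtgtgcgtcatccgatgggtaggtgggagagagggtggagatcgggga
Eif1b (rose; chr9:120492535-120492605, plus strand): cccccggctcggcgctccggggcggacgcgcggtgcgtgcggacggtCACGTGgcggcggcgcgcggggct
Eif3f (rose; chr7:108934300-108934399, plus strand): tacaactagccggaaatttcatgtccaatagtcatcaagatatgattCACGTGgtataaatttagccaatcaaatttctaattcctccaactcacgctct

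The motif lies 18 bases before the start in Eif1b, 48 in Eif4g1, 58 in Eif4e, 62 in Eif3f, 68 in Eif5a, 90 in Eif4h and 183 in Eif4a1, at the listed start nearest to it. The Eif4e window holds a second E-box further upstream. None of the 40 genes held the cyclic AMP response element TGACGTCA (3.14% of tested genes did) or TGATGCAA, a composite element of ATF4 and C/EBP factors (0.568% of tested genes), on either strand. Motifs this rare can easily be absent from 40 genes, so their absence is no result about these genes. Other spellings were not searched, and the remaining initiation factor genes were not in the promoter table. CCGGAAG, a core of ETS factor sites, was present for 12 of the 40 (30%, against 17.5% of tested genes), 5 of them among the genes that fell and 4 among those that rose.

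Eif5a, the gene of the hypusine-carrying factor that helps the ribosome past difficult stretches, had the largest fall of all 48 genes. It measured 842 and 840 FPKM in WT and 517 and 538 FPKM in KO. The mean fell by 37.3% (log2 fold change -0.67 ± 0.034, adjusted p = 6.7e-06). Both KO values were far below both WT values, at 36599 to 55968 reads per library. Its paralogue Eif5a2 measured 5.72 and 5.21 FPKM in WT and 5.84 and 6.73 FPKM in KO and was not called (0.17, 95% interval -0.03 to 0.37). Eif5a thus exceeded Eif5a2 by 147 and 161 times in WT and by 88.5 and 79.9 times in KO. Both enzyme genes of the hypusine modification fell too. Dhps, the deoxyhypusine synthase gene, measured 21.2 and 18.9 FPKM in WT and 13.3 and 13.8 FPKM in KO (-0.53 ± 0.064, adjusted p = 3.2e-04). Dohh, the hydroxylase gene, measured 30.8 and 32.6 FPKM in WT and 21.7 and 25.5 FPKM in KO (-0.41 ± 0.075, adjusted p = 0.00218).

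Other genes of the translation machinery, on lists chosen with earlier results of these data known, were counted beside them. Of 8 other initiation and recycling factors, 5 fell, including Dhps and Dohh, and 1 rose, the gene of the mitochondrial factor Mtif2. These are 62.5% and 12.5%, beside 29.1% of all tested genes lower and 35.6% higher, and without DHODH KO replicate 2, 6 fell and 1 rose. Denr, which releases leftover tRNA from the small subunit, fell from 37.8 ± 2.38 to 25.2 ± 1.27 FPKM, and Mcts2, a copy of its partner gene Mcts1, by 0.65 on the log2 scale. Of 14 tested elongation and termination factors, 10 fell and 1 rose, with a median log2 fold change of -0.35, so that 71.4% were lower and 7.14% higher, beside 29.1% and 35.6% of all tested genes. Without DHODH KO replicate 2 these counts were the same. The list mixes cytosolic factors with mitochondrial ones, namely Tufm, Tsfm and Gfm1, which fell, and Gfm2, which was not called. Eef1a1, the gene of highest level on it, went from 7239 ± 39.6 to 6975 ± 34.1 FPKM and was not called (adjusted p = 0.180). The translocase gene Eef2 fell from 1564 ± 14.8 to 1101 ± 12.7 FPKM, the release factor gene Etf1 from 82.4 ± 0.0248 to 59.2 ± 1.40 FPKM, and Eef1g, of the exchange factor of eEF1A, by 0.46 on the log2 scale. Eef1e1, a scaffold of tRNA synthetases listed there by name, rose 1.58-fold.

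Of 14 partners and regulators of eIF4F, 7 rose and 1 fell, with and without DHODH KO replicate 2. The share called, 57.1%, was below the 64.7% of all tested genes, with 50% higher and 7.14% lower beside 35.6% and 29.1%. The risers named by the rule were Mknk2 (1.49-fold), which encodes a kinase of eIF4E, Paip1 (1.60-fold), which ties the poly(A)-binding protein to eIF4F, Dhx29 (1.32-fold), a helicase of the scanning ribosome, and Pdcd4 (2.19-fold, to 1.86 ± 0.119 FPKM), an inhibitor of eIF4A. Of 12 genes of mTORC1 and its translation outputs, 3 rose and 2 fell, and without DHODH KO replicate 2, 3 rose and 3 fell. The share called was 41.7%, beside 64.7% of all tested genes, with 25% higher and 16.7% lower beside 35.6% and 29.1%. Larp1, the gene of a repressor of ribosomal protein mRNAs, fell from 85.1 ± 0.519 to 64.4 ± 3.15 FPKM. Rheb, the activator of mTORC1, rose 1.27-fold, Tsc1, the gene of a part of its inhibitor, 1.44-fold and Rps6 1.11-fold. The call of Rps6 was lost without WT replicate 2 (adjusted p = 0.0698). The number of falls on this list moved with the setting, to 4 with median-ratio scaling or voom, 6 with quantile normalization, and 1 with no filter or without WT replicate 1 or DHODH KO replicate 1.

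Several initiation factor genes share sequence or position with other genes, which bears on their levels. Of 50 genes with transcripts in GENCODE vM21, 11 shared at least 20% of their 50-base stretches with another gene and 29 shared under 5%. Besides those named above, the 11 include Eif3m (37.1%), Eif2s3x (35.4%), Eif3h (26.2%), Eif4a3 (23.6%), Eif3e (22%), Eif2s2 (21.9%) and Eif1 (21.4%). The genes with the largest changes, Eif5a (3.77%) and Eif1b (4.2%), shared few stretches, and Eif3a, Eif3b, Eif3f, Eif3g and Eif3l shared 0%. In the RefSeq gene table Eif5a overlaps Gps2, Eif1ad overlaps Banf1, Eif2a overlaps Serp1 and Eif2d overlaps Rassf5. Other called genes that overlap protein-coding genes are Eif3m (Ccdc73), Eif4a2 (Rfc4) and Eif4enif1 (Sfi1 and Gm51877). Genes not called with such overlaps include Eif5b (Rev1), Eif3j1 (Spg11) and Eif3j2 (Gm3650). Small RNA genes also overlap some called genes, among them Eif3a, Eif4a1 and Eif4g1. Since the use of strand is not stated, reads of such overlaps cannot be assigned with certainty.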

How the data were processed

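The deposited table holds FPKM per gene for 4 libraries, scaled by the authors to gene length and library size. The submitters' processing notes name fastp, HTSeq and the genome build GRCm39. For aligner, annotation and strand setting nothing is given in the sources used here, so reads of overlapping or antisense genes may be mixed. Columns were matched to samples by title.

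Whole reads came back from FPKM steps for 16662 of 16695 genes (99.8%, searched up to 60000 reads, tolerance 0.002 of a read), including all 51 initiation factor genes. They are the smallest whole numbers that fit, so the reads of a gene are known only up to a common factor. Reads per tested initiation factor gene lay between 164 and 55968. For genes with a mean of at least 1 FPKM, limma-trend was fitted to log2(FPKM + 1) without covariates (limma 3.58.1, R 4.3.3). A check on simulated data with independent normal errors set a pass mark only for changes of 1 on the log2 scale. No initiation factor gene reached that size, so the check does not bear on the smaller changes called here. Tables and figures were made in Python 3.11.15 with pandas 2.3.3, NumPy 2.4.6 and Matplotlib 3.10.9.

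The genes, lists and motifs were chosen with earlier results of these data known. Values of each library are given for called genes past 0.5 on the log2 scale, the highest gene of each role group and paralogue families, and for some others after their values were seen. Of related lists, up to 4 called genes of smallest adjusted p are named, most of them by means or changes only. Shared 50-base stretches were counted over GENCODE vM21 transcripts, and all 51 genes were matched to RefSeq (GRCm38.p6) by Entrez identifier. Its build differs from that of the deposited table, whose coordinates were not used. Alternatives tried were pseudocounts of 0.1 and 5, no filter or one at 5 FPKM, TPM, median-ratio or quantile scaling, no trend, robust moderation, a fold threshold, voom on recovered reads, a replicate block and leaving out each library.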

Additional observations from a re-analysis of the deposited data

How the results depend on the processing

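Over 15 alternatives, leaving aside the fold threshold, 27 of the 32 called initiation factor genes kept call and direction wherever they were tested (Eif4ebp3 is below a filter of 5 FPKM). Calls of Eif2b1, Eif3m, Eif4a3, Eif4enif1 and Eif4h were lost in at least 1, as given above, and none changed sign. With a fold threshold of 1 on the log2 scale, 0 initiation factor genes remained (0 higher, 0 lower; the largest absolute value was 0.69), beside 2 genes of the related lists and 404 of all genes (287 higher, 117 lower). Leaving out 1 library gave 28 to 34 called initiation factor genes (7 to 9 higher, 21 to 26 lower). Of the 16 genes not called, 10 changed sign somewhere. Leaving out 1 library moved Eif1ax between -0.0386 and 0.037, Eif2b4 between -0.0761 and 0.0579, Eif3e between -0.0422 and 0.0364, Eif3h between -0.010 and 0.0357, Eif3j2 between -0.1441 and 0.0123, Eif4e2 between -0.0152 and 0.0296 and Eif5 between -0.0546 and 0.0065. With median-ratio scaling Eif3h was at -0.0284, Eif4b at -0.0011, Eif4e2 at -0.032 and Eif4g2 at -0.0308. Quantile normalization gave -0.0143 for Eif2b3 and -0.0447 for Eif4e2, and voom -0.0039 for Eif4e2 and -0.0011 for Eif4g2. The cause was not tested. Eif6 was called in 5 alternatives, Eif3k in 3 and Eif3j1, Eif4g3 and Eif5a2 in 1 each. The labels do not say that replicate numbers pair libraries, and the differences between replicates of WT and of KO correlated with r = 0.0463 across genes. With the replicate block 33 initiation factor genes were called (8 higher, 25 lower) and 6682 genes in all. Depth limits the lowest genes, from 164 reads up.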
